A study of Mus musculus with 9 samples.

Results

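The cytochrome P450 genes were taken as all genes whose mouse symbol has the form Cyp, number, letter and number and that have an NM entry of RefSeq, with the entry of the highest mean in the Aire pair read for each symbol. The rule gave 93 members among 20280 symbols with an NM entry. Their RNA was counted in 9 sequencing libraries, 1 for each group and with no replicate within a group, all made from medullary thymic epithelium (mTEC) of B6 mice. In the Aire pair, the library labelled Aire-KO held MHC-II-high mTEC (mTEChi) of mice without Aire in every cell, and the library labelled WT held mTEChi of mice with Aire. These are called Aire-KO and WT below, by their labels. In the mTEC pair, mTEChi were set against MHC-II-low mTEC (mTEClo), both sorted from 1 pool of WT mice. A time course of 5 libraries used WT mTEChi before (0 h) and after 1.5, 3, 6 and 12 h with 1 uM of actinomycin D, a blocker of transcription. All cells came from pooled thymi of mice, 4 thymi a pool in each pair, and were sorted as CD45-negative and Ly51-negative cells, so each value is a mean over several animals and a spread between animals is not contained in it.

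Cytochrome P450 enzymes carry a heme group and use it to insert oxygen into lipids, hormones and foreign compounds. Most are made in particular organs: those of drug and bile acid metabolism in the liver, those of steroid hormone synthesis in the adrenal gland and gonads, and others in nose, lung, kidney, skin or gut. Medullary thymic epithelium transcribes many such organ-restricted genes at low level, which lets developing T cells meet their products, and Aire is the best known factor for this. In humans without AIRE (the syndrome APS-1), autoantibodies to several P450 enzymes of the adrenal gland and the liver are a hallmark.

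The feature that unites the family is the cysteine that binds the iron of heme. The 10-codon signature around it, as the PROSITE database defines it, was found in the coding sequence of 84 of the 90 members annotated in gencode vM1 (mm9), against 105 of 22594 coding genes in all (0.465%). The 30 coding bases of the signature are shown for members that the results below turn on, with the codon of the cysteine in capitals.
Cyp2a5: ttttccattggaaaacggtatTGTttcgga
Cyp2g1: ttttcctctggaaagcgcatcTGCgttggg
Cyp2f2: ttttcggctggacgtcgactgTGTctggga
Cyp1a2: ttcggcttgggaaagcgccggTGCattggg
Cyp11a1: tttggctggggtgttcggcagTGTctgggc
Cyp17a1: ttcggagctggtccccgatcgTGCattgga
Cyp21a1: tttggctgtggggcacgcgtgTGCctggga
Cyp26a1: tttggaggaggccttcggagcTGTgtaggc
Cyp4f16: ttttctgccgggcccaggaacTGCatagga
The codon was TGC in 50 members and TGT in 34. The bases around it were identical in some close relatives, such as Cyp2a4 and Cyp2a5. Over whole transcripts, 33 of 90 members shared no 50-base stretch with another member, 31 shared at least 10% of their stretches, and only 3 (Cyp2c40, Cyp2c67 and Cyp2c69) shared at least 50%.

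The closest pair among the high members was Cyp2a4 and Cyp2a5, whose coding sequences differed at 23 of 1485 bases (98.5% identity). Their most different stretch of 30 coding bases is shown because only such differences separate their reads, with the differing bases in capitals.
Cyp2a5: tgtcactGcttCgaatgatgctgggaagcT
Cyp2a4: tgtcactTcttAgaatgatgctgggaagcC
Exact 50-base stretches shared with the other made up 36.5% of the Cyp2a4 transcript and 31.0% of that of Cyp2a5, so reads may have moved between these genes. The ratio of Cyp2a5 reads to Cyp2a4 reads was 4.49 in Aire-KO, 4.32 in WT, 4.15 in mTEChi and 4.21 in mTEClo. Along the actinomycin D series it was 3.71, 3.92, 3.70, 4.29 and 3.56, so that over all 9 libraries it lay between 3.56 and 4.49.

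Total reads within RefSeq entries were between 74161592 and 195444567 in the 5 untreated libraries and between 1746825 and 21124165 in the 4 treated ones, which were made with another kit, so a difference between 0 h and the later times can be of kit or of treatment and these cannot be told apart. The mTEC markers were present, and 6 of 9 were at least 3-fold higher in mTEChi than in mTEClo, while Krt5 and Krt14 were lower. Aire had 661 CPM in the Aire-KO library, against 259 CPM in WT, with 444 CPM in mTEChi and 14.4 CPM in mTEClo. The 2.99-fold higher value in the library labelled Aire-KO goes against its label if the whole gene was lost. The deleted part of Aire is not given in the sources used here, so a count over the whole gene cannot check the label. Every direction of the Aire pair rests on the columns as the study's code reads them. Alb, a liver gene, had 0.0629 CPM in the column read as Aire-KO, against 13 CPM in that read as WT, with 16.7 CPM in mTEChi of the mTEC pair and 18.4 CPM at 0 h, and Fgb had 0 CPM in Aire-KO, against 8.09 CPM in WT, 11.2 CPM in mTEChi and 14.9 CPM at 0 h. For both genes the column read as WT was thus near the separately labelled WT mTEChi libraries, and the column read as Aire-KO was not. The same held for Hp (1.48, 45.9, 28.7 and 45.7 CPM in the same order) and Apoa1 (11.3, 126, 78.1 and 84.8 CPM). Ttr, also a liver gene, went the other way (8.34, 52.5, 15.8 and 16.2 CPM), the column read as Aire-KO being the nearer.

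In WT mTEChi the family was dominated by genes known from nose, lung and liver. Levels are given per length (RPKM, reads per kilobase of transcript and 1e+06 reads) as mean ± SD over the 3 untreated WT mTEChi libraries (the WT library of the Aire pair, mTEChi of the mTEC pair, and 0 h). Cyp2a5, the coumarin hydroxylase of mouse liver and nasal mucosa, averaged 356 ± 143 RPKM (SD, n = 3). Cyp2a4, a steroid hydroxylase, averaged 88.6 ± 38.6 RPKM (SD, n = 3). Cyp2g1, an enzyme of the olfactory mucosa, followed with 51.1 ± 25 RPKM and Cyp2f2, which oxidises naphthalene in the club cells of the airway, with 50.4 ± 29.2 RPKM (SD, n = 3 each), and these neighbours did not differ beyond their spread. Cyp26a1, which clears retinoic acid, averaged 22.5 ± 6.46 RPKM and Cyp4f16 averaged 21.8 ± 1.45 RPKM (SD, n = 3 each), again within the spread. All further members averaged at most 13.1 RPKM (Cyp4v3), and the lowest were near 0.05 RPKM (Cyp7a1, Cyp2c38 and Cyp4a31).

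Cyp2a5 alone held 32.2% of the summed RPKM of all members in Aire-KO mTEChi, against 47.8% in WT. Its share was 40.3% in mTEChi, against 27.4% in mTEClo, and 46.4% at 0 h. The summed level of the members was 407 CPM (reads per 1e+06 counted reads) in Aire-KO mTEChi, against 1669 CPM in WT, and 916 CPM in mTEChi, against 610 CPM in mTEClo, with 1806 CPM at 0 h. Without Cyp2a4, Cyp2a5, Cyp2f2 and Cyp2g1, the rest of the family summed to 231 CPM in Aire-KO, against 497 CPM in WT. A member's highest CPM among the 3 untreated WT mTEChi libraries was at the median 2.01 times its lowest, against 1.89 times over 18207 genes, which is the spread against which differences of the pairs have to be read.

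**Figure D1:**
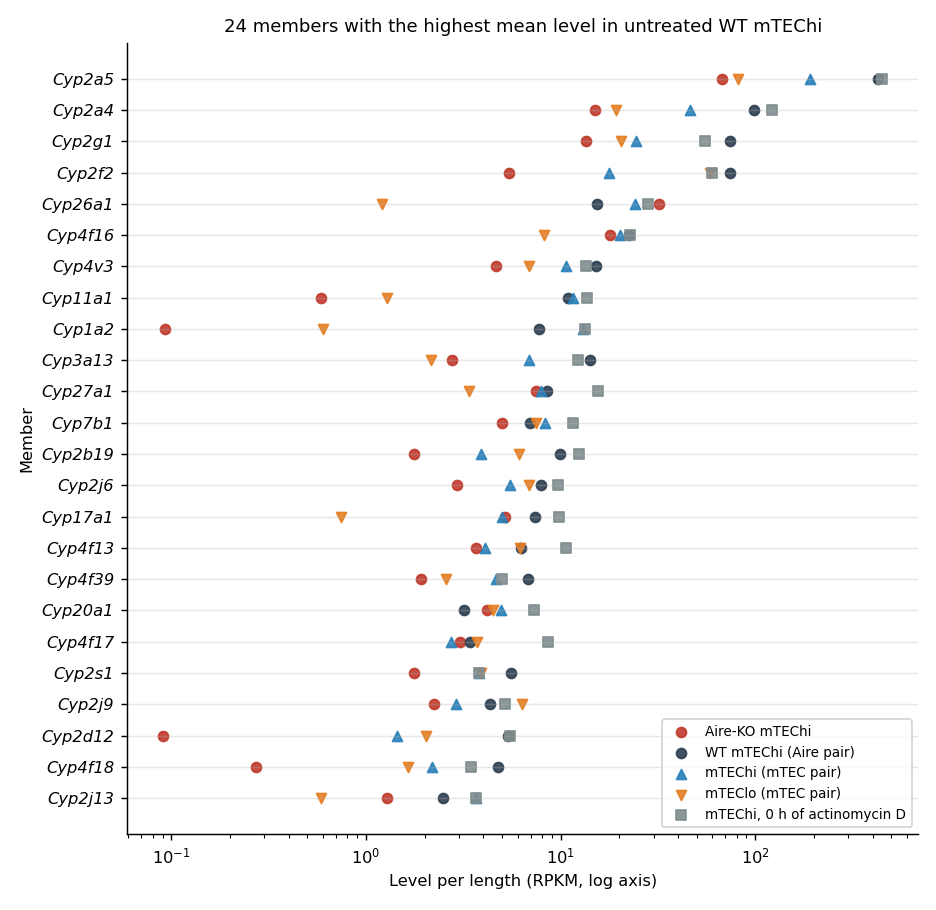
Level per length (RPKM, log axis) of the 24 members with the highest mean over the untreated WT mTEChi libraries, 1 point a library, for the 5 untreated libraries. Cyp2a5 stands at 67.7 RPKM in Aire-KO and 426 RPKM in WT, Cyp1a2 and Cyp11a1 have their lowest points in Aire-KO, and Cyp26a1 has its highest point in Aire-KO (32.0 RPKM) and its lowest in mTEClo (1.21 RPKM).

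The Aire pair asks which members depend on Aire. In the library labelled Aire-KO, 65 of 91 members with at least 10 normalised counts over the pair were at least 3-fold lower than in WT (71.4%), where 22.8% of all genes tested were. No member was at least 3-fold higher, where 1.65% of all genes were. Within 2-fold stood 15 members (16.5%, against 64.6% of all genes), and the remaining 11 lay between the limits. The median log2 ratio of Aire-KO over WT was -2.78 for members and -0.06 for all 18199 genes, and the members' median was -2.48 with counts of 0 set to 3 reads. Scaling to equal totals instead of DESeq size factors moves every ratio of the pair by -0.23 on the log2 scale. These ratios are of 1 library against 1, and their intervals, exact and at 95%, cover counting error only.

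Set against all 3 untreated WT mTEChi libraries, the Aire-KO CPM was below each of them for 87 of 92 members, which 47.7% of all genes did. The 5 exceptions were Cyp17a1, Cyp20a1, Cyp26a1, Cyp2r1 and Cyp4f17, and of these only Cyp26a1 was above all 3, as 10.7% of all genes were. In edgeR's quasi-likelihood test of the Aire-KO library against these 3 libraries, fitted over all entries, 29 of 92 members were lower at a Benjamini-Hochberg adjusted p of 0.05, where 9.42% of all genes were, and 0 were higher, where 0.093% of all genes were. At an unadjusted p of 0.05, 63 members were lower and 0 higher, while of 23916 entries 4791 were lower and 274 higher. Without the 0 h library the test again called 29 members lower and 0 higher, where 12.9% of all genes were lower and 0.417% higher. DESeq2 called 52 members lower, where it called 15.6% of all genes, and 0 higher, where it called 0.302%. The lone library is assumed to vary as the WT libraries do in these fits.

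**Figure D2:**
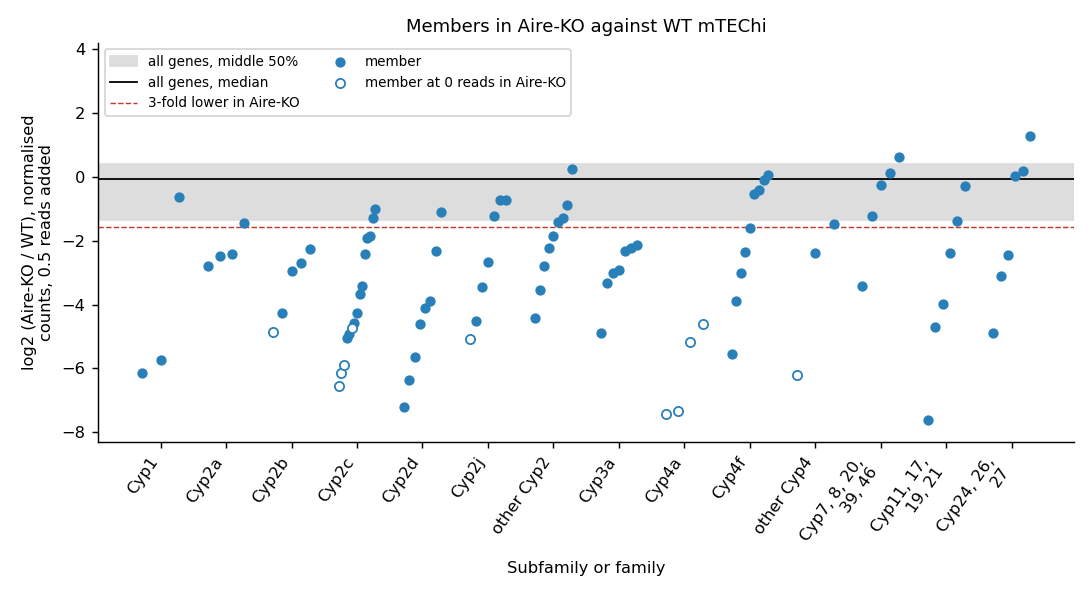
log2 ratio of Aire-KO over WT mTEChi for the 91 members tested, by subfamily or family, 1 point a member, with 0.5 reads added and open points for members at 0 reads in Aire-KO. The grey band and black line give the middle 50% and the median of all genes. All points of Cyp2b, Cyp3a and Cyp4a lie below the dashed line at 3-fold, and 1 point, Cyp26a1, lies above a log2 ratio of 1.

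Among the P450s that autoantibodies of APS-1 patients bind, taken as 6 mouse genes, 4 were at least 3-fold lower in Aire-KO, 1 was within 2-fold and 1 between. Of all members tested 71.4% were at least 3-fold lower, and of all genes 22.8%. Cyp2a4 and Cyp2a5, which may share reads, are among the 4. Cyp1a2, a drug and caffeine oxidase of the liver, had 0.175 CPM in Aire-KO mTEChi, against 14.7 CPM in WT, with 24.7 CPM in mTEChi of the mTEC pair and 25.3 CPM at 0 h. It was 71.8-fold lower in Aire-KO (interval 48.4 to 111), and the difference held against the spread of the WT libraries (log2 -6.65, SE 0.78, edgeR adjusted p = 0.00878). Cyp11a1, which makes the first cut of cholesterol in steroid synthesis, had 1.03 CPM in Aire-KO, against 19.4 CPM in WT, 20.4 CPM in mTEChi and 24.1 CPM at 0 h. That was 16.0-fold lower (13.5 to 19; edgeR log2 -4.08, SE 0.61, adjusted p = 0.0113).

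The most abundant of these antigens had fold changes of a smaller size. Cyp2a5 had 116 CPM in Aire-KO, against 731 CPM in WT, 327 CPM in mTEChi and 771 CPM at 0 h, 5.37-fold lower in the pair (5.28 to 5.47). Cyp2a4 had 25.8 CPM in Aire-KO, against 169 CPM in WT, 78.8 CPM in mTEChi and 208 CPM at 0 h, 5.59-fold lower (5.40 to 5.80). For both the Aire-KO library lay below all WT libraries, but with the spread of these the edgeR adjusted p was 0.0905 for Cyp2a5 and 0.0942 for Cyp2a4. DESeq2 called both, with adjusted p = 0.014 for Cyp2a5 and 0.00764 for Cyp2a4.

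The adrenal antigens did not move together. Cyp17a1, the hydroxylase and lyase that leads to cortisol in humans and to sex steroids, had 9.47 CPM in Aire-KO, against 13.5 CPM in WT, 9.16 CPM in mTEChi and 18.0 CPM at 0 h. The Aire-KO value thus lay within the range of the WT libraries, and the ratio of the pair was 0.82 (0.76 to 0.88; edgeR adjusted p = 0.921). Cyp21a1, the adrenal hydroxylase whose human counterpart is the main target in Addison's disease, was near the limit of detection, with 0.147 CPM in Aire-KO (21 reads), against 0.460 CPM in WT (48 reads), 0.573 CPM in mTEChi and 0.731 CPM at 0 h. It was 2.67-fold lower (1.57 to 4.70), with an edgeR adjusted p of 0.281.

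Of the 6 genes of steroid hormone synthesis, 4 were at least 3-fold lower (71.4% of members and 22.8% of all genes were), the others being Cyp17a1 and Cyp21a1 above. Cyp11b1, which completes the synthesis of corticosterone, had 1 read in Aire-KO, against 251 reads in WT, with 511 reads in mTEChi and 154 reads at 0 h. The ratio was 293-fold (52.2 to 11636), and the edgeR adjusted p was 0.0097. Cyp19a1, the aromatase that makes estrogens, had 8 reads in Aire-KO, against 187 in WT, 384 in mTEChi and 229 at 0 h (27.3-fold lower, 13.6 to 64.2). Cyp11b2, the aldosterone synthase, was 5.35-fold lower (3.48 to 8.52). Of 3 tested markers of steroid-making cells, 2 (Nr5a1 and Hsd3b1) were at least 3-fold lower in Aire-KO as well, and the list summed to 5.41 CPM in Aire-KO, against 11.7 to 23.4 CPM in the untreated WT mTEChi libraries. Hsd3b1 was at 0 in Aire-KO and the defining receptor Mc2r was at 0 in both, and their part in the result was not tested.

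The Cyp1 genes are induced through the aryl hydrocarbon receptor Ahr. Cyp1a1 was 58.7-fold lower in Aire-KO (24.8 to 182), with 5 reads in Aire-KO, against 251 in WT, 1242 in mTEChi and 389 at 0 h. Cyp1b1, which is made in many tissues, had 4.31 CPM in Aire-KO, against 7.81 CPM in WT, 11.2 CPM in mTEChi and 6.68 CPM at 0 h, a ratio of 0.65 (0.58 to 0.72). Ahr itself had 2.08 CPM in Aire-KO, against 8.72 CPM in WT, 5.19 CPM in mTEChi and 10.7 CPM at 0 h. In the mTEC pair Ahr was 3.50-fold lower in mTEChi, with 17.3 CPM in mTEClo. There the log2 ratios of mTEChi over mTEClo were 2.25 for Cyp1a1, 4.37 for Cyp1a2 and -2.25 for Cyp1b1. The part of Ahr in the levels of these genes was not tested.

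The Cyp2 family, to which 48 members belong, holds most enzymes of foreign compounds, and 37 of its 48 members were at least 3-fold lower in Aire-KO (71.4% of members and 22.8% of all genes were). By subfamily these were 13 of 15 Cyp2c, 7 of 8 Cyp2d, 5 of 5 Cyp2b, 3 of 4 Cyp2a and 4 of 7 Cyp2j members. Cyp2f2 had 9.84 CPM in Aire-KO, against 134 CPM in WT, 32.2 CPM in mTEChi and 109 CPM at 0 h (11.6-fold lower, 11 to 12.3). Cyp2g1 had 25 CPM in Aire-KO, against 137 CPM in WT, 45.1 CPM in mTEChi and 102 CPM at 0 h (4.68-fold lower, 4.51 to 4.86). Both were below all WT libraries, whose own values spread widely, and the edgeR adjusted p was 0.102 for Cyp2f2 and 0.260 for Cyp2g1. DESeq2 called Cyp2f2 (adjusted p = 0.0017) and not Cyp2g1 (0.129).

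The Cyp2d genes, relatives of the human drug oxidase CYP2D6, included some of the lowest ratios. Cyp2d10 had 2 reads in Aire-KO, against 315 in WT, 269 in mTEChi and 444 at 0 h (184-fold, 50.6 to 1527). Cyp2d11 had 1 read in Aire-KO, against 104 in WT, 72 in mTEChi and 148 at 0 h (122-fold, 21.3 to 4848). Cyp2d12 had 0.147 CPM in Aire-KO, against 8.71 CPM in WT, 2.34 CPM in mTEChi and 8.96 CPM at 0 h (50.6-fold lower, 32.9 to 82.2). Cyp2d22 stood apart from its neighbours with a ratio of 0.47 (0.35 to 0.63). Reads of this subfamily are partly shared: 25.9% of the 50-base stretches of Cyp2d10 also lie in Cyp2d11.

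Cyp2c genes, which oxidise drugs and arachidonic acid, were low throughout, their highest mean being 0.943 RPKM in Cyp2c29. Cyp2c29 had 9 reads in Aire-KO, against 244 in WT, 185 in mTEChi and 162 at 0 h (31.7-fold lower, 16.4 to 70.1). Cyp2c38, Cyp2c39, Cyp2c55 and Cyp2c66 were at 0 reads in Aire-KO, against 11, 30, 40 and 25 reads in WT. Cyp2e1, the ethanol oxidase of the liver, had 9 reads in Aire-KO, against 175 in WT, 523 in mTEChi and 275 at 0 h (22.7-fold lower, 11.7 to 50.5). Cyp2b19, an arachidonic acid epoxygenase of the epidermis, had 4.73 CPM in Aire-KO, against 26.6 CPM in WT, 10.5 CPM in mTEChi and 33.6 CPM at 0 h (4.81-fold lower, 4.42 to 5.24).

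All 7 Cyp3a genes, whose human relatives oxidise a large part of all drugs, were at least 3-fold lower in Aire-KO (71.4% of members and 22.8% of all genes were). Cyp3a44 had 5 reads in Aire-KO, against 140 in WT, 519 in mTEChi and 269 at 0 h (32.7-fold lower, 13.7 to 102). Cyp3a11, the main form of mouse liver, had 0.364 CPM in Aire-KO, against 4.29 CPM in WT, 3.43 CPM in mTEChi and 4.6 CPM at 0 h (10.1-fold lower, 7.53 to 13.7). Cyp3a13, the highest of the subfamily, had 8.15 CPM in Aire-KO, against 41.9 CPM in WT, 20.3 CPM in mTEChi and 36.1 CPM at 0 h (4.39-fold lower, 4.11 to 4.69). For all 7 genes the Aire-KO library lay below each of the untreated WT mTEChi libraries.

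The Cyp4 genes oxidise the end of fatty acid chains, and 11 of 16 tested were at least 3-fold lower (71.4% of members and 22.8% of all genes were). Of the Cyp4a genes, which fasting induces in liver through Ppara, none had a read in Aire-KO, while WT had 73 for Cyp4a10, 68 for Cyp4a14 and between 9 and 15 for Cyp4a29, Cyp4a31 and Cyp4a32. Against a floor of 3 reads Cyp4a10 was at least 28.4-fold and Cyp4a14 at least 26.5-fold lower. In all, 13 members were at 0 reads in Aire-KO and 0 in WT, and 11 of the 13 were among those tested (12.1%, against 4.21% of all genes).

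The Cyp4f genes divided. Cyp4f14, which inactivates leukotriene B4, had 0.105 CPM in Aire-KO, against 5.89 CPM in WT, 6.87 CPM in mTEChi and 8.26 CPM at 0 h, 47.9-fold lower (28.8 to 86.0; edgeR log2 -5.76, SE 0.73, adjusted p = 0.00931). Cyp4f18, the leukotriene hydroxylase of white blood cells, was 15-fold lower (11.6 to 19.5). By contrast, 4 of the 9 members were within 2-fold, among them Cyp4f16, with 38.6 CPM in Aire-KO, against 48.8 CPM in WT, 43.6 CPM in mTEChi and 49.3 CPM at 0 h (ratio 0.93, 0.89 to 0.96). Cyp4f17 had 5.15 CPM in Aire-KO, against 5.77 CPM in WT, 4.61 CPM in mTEChi and 14.6 CPM at 0 h (ratio 1.05, 0.94 to 1.17), within the range of the WT libraries.

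Genes of vitamin D and retinoic acid differed within each group. Cyp24a1, which breaks down vitamin D, had 11 reads in Aire-KO, against 289 in WT, 664 in mTEChi and 203 at 0 h (30.7-fold lower, 16.9 to 62.2). Cyp27b1, which activates vitamin D in the kidney, was 5.49-fold lower (3.89 to 7.94), while Cyp2r1 of the liver had 69 reads in Aire-KO, against 50 in WT (ratio 1.18, 0.81 to 1.73). Cyp26a1 had 57.0 CPM in Aire-KO, against 27.4 CPM in WT, 43.0 CPM in mTEChi and 49.9 CPM at 0 h. It was the one member with a ratio above 2 (2.44, 2.33 to 2.54), and its Aire-KO value exceeded the 0 h value by less than the WT libraries differed among themselves (edgeR adjusted p = 0.442). Cyp26b1 was 8.72-fold lower (6.81 to 11.3), and Cyp26c1 had 0.895 CPM in Aire-KO, against 0.920 CPM in WT, 2.66 CPM in mTEChi and 2.26 CPM at 0 h.

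Of the enzymes of cholesterol and bile acid, 1 of 5 tested was at least 3-fold lower (22.8% of all genes were), and 3 were within 2-fold. That one was Cyp46a1, the cholesterol hydroxylase of neurons (11.4-fold, 5.22 to 29.3). Cyp27a1, the sterol hydroxylase of mitochondria, had 14.1 CPM in Aire-KO, against 16.2 CPM in WT, 14.9 CPM in mTEChi and 29.4 CPM at 0 h (ratio 1.03, 0.96 to 1.10). Cyp39a1, a hydroxylase of oxysterols, had 3.90 CPM in Aire-KO, against 4.19 CPM in WT, 5.33 CPM in mTEChi and 5.76 CPM at 0 h (ratio 1.09, 0.96 to 1.24). Cyp7b1, which hydroxylates oxysterols too, had 10.8 CPM in Aire-KO, against 15.1 CPM in WT, 17.9 CPM in mTEChi and 24.9 CPM at 0 h (ratio 0.84, 0.78 to 0.90). Cyp7a1, the rate-limiting enzyme of bile acid synthesis, had 0 reads in Aire-KO, against 8 in WT, and was below the minimum. Cyp20a1, an enzyme of unknown substrate, had a ratio of 1.53 (1.37 to 1.71), and its 6.26 CPM in Aire-KO lay between the 4.80 and 10.97 CPM of the WT libraries.

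Markers of some other cell types were lower in Aire-KO too, and their part in the result was not tested. Of all genes, 22.8% were at least 3-fold lower. All 5 hepatocyte markers were at least 3-fold lower in Aire-KO, with a summed level of 21.2 CPM in Aire-KO, against 150 to 245 CPM in the untreated WT mTEChi libraries, and Fgb at 0 in Aire-KO. Of 7 dendritic cell and macrophage markers, 5 were at least 3-fold lower (350 CPM in Aire-KO, against 260 to 670 CPM in these WT libraries), none being at 0. Lyz2, which was within 2-fold, made up most of this sum, with 336 CPM in Aire-KO, against 172 to 574 CPM in these WT libraries. For 6 of the 7 markers the Aire-KO CPM lay below each of these libraries, as it did for 47.7% of all genes. Other lists had fewer such markers: 2 of 8 for thymocytes, 2 of 5 for endothelium, 1 of 4 for B cells and 1 of 4 for cortical epithelium were at least 3-fold lower. Of 7 fibroblast markers, 0 were at least 3-fold lower and 1, Postn, was at least 3-fold higher (1.65% of all genes were). In bulk samples, fewer cells of a type and less RNA per cell cannot be told apart.

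Many members lie side by side in the genome, and neighbours differed in level far more than in the direction of the pair. On mm9, 13 Cyp2 genes lie on chromosome 7 between 26587494 and 27943687, and their mean levels in WT mTEChi ran over 0.102 to 356 RPKM. For this and the next groups, the counts stand beside 71.4% of all members tested and 22.8% of all genes at least 3-fold lower in Aire-KO. Of the chromosome 7 neighbours, 10 were at least 3-fold lower, and the other 3 were Cyp2s1, Cyp2a22 and Cyp2t4, with log2 ratios of Aire-KO over WT of at most -0.88. The 14 Cyp2c genes on chromosome 19 (39081509 to 40261823) held 12 that were lower, and the 8 Cyp2d genes on chromosome 15 (82200958 to 82624675) held 7. All 6 Cyp3a neighbours on chromosome 5 (146106148 to 146924861) were lower. On chromosome 4, 5 of 5 tested genes of the group with Cyp4a (114778928 to 115320322) were lower, and 4 of 7 Cyp2j genes (95694225 to 96330845). The Cyp4f group of chromosome 17 (32605404 to 33084347) was mixed, 4 of 7 being lower and 3 within 2-fold.

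**Figure D3:**
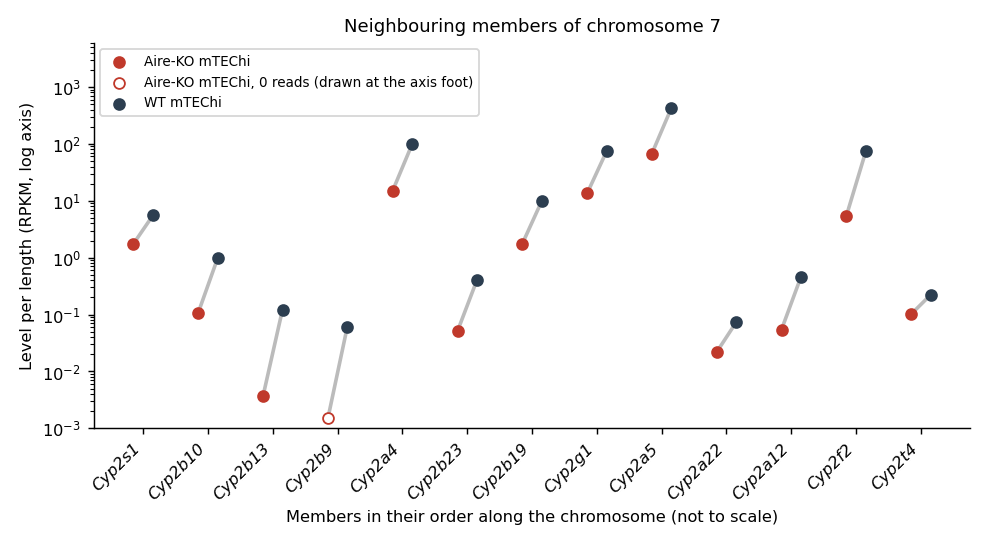
Level per length (RPKM, log axis) of the 13 neighbouring members of chromosome 7 in their order along the chromosome, with the Aire-KO library left and the WT library right of each pair of points and an open point for Cyp2b9, which had 0 reads in Aire-KO and is drawn at the axis foot. Every Aire-KO point lies below its WT point, and Cyp2a5 has the highest points of both, 67.7 RPKM in Aire-KO and 426 RPKM in WT.

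Promoters were searched for TATAAA, on the strand of the gene, in the 250 bases before the start given by RefSeq (GRCm38.p6), where 73 members had an entry. The motif was present in 20 of them (27.4%), against 8.94% of 27025 genes, and in the last 50 bases in 14 (19.2%), against 3.15% of all. Among members at least 3-fold lower in Aire-KO it was present in 18 of 55 (32.7%), and among the other members in 2 of 18 (11.1%). In the last 50 bases it was present in 12 of these 55 (21.8%), and again in 2 of the 18 others (11.1%). The others are all members not at least 3-fold lower, whether tested or not, and their share rests on 2 genes. No such split was made over all genes, so the difference cannot be called particular to the family. The search is a description of letters and not of sites in use. The 30 bases around the motif are shown for the 6 members with the highest RPKM among those lower in Aire-KO with the motif in the last 50 bases, with the motif in capitals.
Cyp2a5: tgtctctggatgTATAAAagcaagctaatt
Cyp2a4: tgtctctggatgTATAAAagcaagctaatt
Cyp1a2: agtgggtggtgtTATAAAaggcccctcgtc
Cyp1a1: gacacagagtccTATAAAggtggtggtgcc
Cyp2e1: tcaacgacacgtTATAAAatccttgtttct
Cyp2c29: ttttttcagtgtTATAAAaactctgtgatg
The windows of Cyp2a5 and Cyp2a4 were identical, and those of the other 4 differed outside the motif. The motif began 29 bases before the start in Cyp2a5 and Cyp1a2, 28 in Cyp2a4, 30 in Cyp1a1, 31 in Cyp2e1 and 19 in Cyp2c29.

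The mTEC pair asks how the members change with the maturation of mTEC from MHC-II-low to MHC-II-high cells. In mTEChi, 20 of 93 members were at least 3-fold higher than in mTEClo (21.5%), where 12.7% of all genes tested were, and 7 were at least 3-fold lower (7.53%), where 12.2% of all genes were. Within 2-fold stood 46 members (49.5%, against 61.1% of all genes). The median log2 ratio of mTEChi over mTEClo was 0.33 for members and 0.04 for all 19833 genes. The edgeR test of the 3 untreated WT mTEChi libraries against the mTEClo library called 5 members higher in mTEChi, where 2.11% of all genes were, and 2 lower, where 1.46% were. Without the 0 h library it called 11 higher and 3 lower, where 7.87% and 4.71% of all genes were. DESeq2 called 15 higher and 3 lower, where it called 7.61% and 3.7% of all genes. The mTEClo CPM was below all 3 untreated WT mTEChi libraries for 50 of 92 members (54.3%), against 37.5% of all genes, and above all 3 for 13 (14.1%), against 26% of all genes.

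Among members with at least 100 normalised counts in mTEChi, the 5 largest ratios of mTEChi over mTEClo were those of Cyp26c1, Cyp1a2, Cyp26a1, Cyp4f14 and Cyp11a1. Cyp26c1 had 520 reads in mTEChi, against 8 in mTEClo, 23.5-fold higher (11.8 to 54.7). Cyp1a2 had 24.7 CPM in mTEChi, against 1.13 CPM in mTEClo, 20.8-fold higher (16.7 to 26.1; edgeR adjusted p = 0.0371). Cyp26a1 had 43.0 CPM in mTEChi, against 2.16 CPM in mTEClo, 19-fold higher (16.2 to 22.3; edgeR adjusted p = 0.0371). Its relative Cyp26b1, by contrast, was within 2-fold, with 4.77 CPM in mTEChi, against 3.26 CPM in mTEClo.

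Of the 6 steroid genes, 4 were at least 3-fold higher in mTEChi (21.5% of members and 12.7% of all genes were). Cyp11a1 had 20.4 CPM in mTEChi, against 2.28 CPM in mTEClo (8.53-fold, 7.31 to 10.01; edgeR adjusted p = 0.0405). Cyp17a1 had 9.16 CPM in mTEChi, against 1.36 CPM in mTEClo (6.40-fold, 5.24 to 7.91; edgeR adjusted p = 0.0480). Cyp11b1 and Cyp19a1 were 3.36-fold (2.54 to 4.52) and 3.85-fold (2.73 to 5.58) higher, while Cyp21a1 had 0.573 CPM in mTEChi, against 0.688 CPM in mTEClo.

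Cyp4f14 had 6.87 CPM in mTEChi, against 0.620 CPM in mTEClo, 10.5-fold higher (7.86 to 14.5; edgeR adjusted p = 0.0405). Of the Cyp3a genes, 4 of 7 were at least 3-fold higher (21.5% of members and 12.7% of all genes were). These were Cyp3a16 by 8.51-fold (5.17 to 15), Cyp3a11 by 6.21-fold (4.50 to 8.82), Cyp3a44 by 6.05-fold (4.21 to 8.99) and Cyp3a13 by 3.03-fold (2.75 to 3.34). Cyp2j13, of a subfamily that makes epoxides of arachidonic acid, had 16.1 CPM in mTEChi, against 2.58 CPM in mTEClo (5.94-fold higher, 5.13 to 6.91). The dominant Cyp2a5 had 327 CPM in mTEChi, against 139 CPM in mTEClo, 2.24-fold higher (2.20 to 2.29; edgeR adjusted p = 0.132), and Cyp2g1 had 45.1 CPM in mTEChi, against 37.9 CPM in mTEClo. Of the hepatocyte markers, 3 of 5 were at least 3-fold higher in mTEChi (summed 150 CPM, against 42.9 CPM in mTEClo), where 12.7% of all genes were. Of the dendritic cell and macrophage markers 4 of 7 were (544 CPM, against 74.7 CPM). None was at 0 in either library, and their part in these results was not tested.

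The members lower in mTEChi were of different families. Cyp2d22 had 1.07 CPM in mTEChi, against 8.56 CPM in mTEClo (8.37-fold lower, 7.15 to 9.83; edgeR adjusted p = 0.0371). Cyp1b1 had 11.2 CPM in mTEChi, against 50.7 CPM in mTEClo (4.76-fold lower, 4.52 to 5.02; edgeR adjusted p = 0.0372). Cyp4b1, an enzyme of lung and kidney, had 1.47 CPM in mTEChi, against 6.92 CPM in mTEClo (4.95-fold lower, 4.28 to 5.74), with an edgeR adjusted p of 0.0595, and of 0.0154 without the 0 h library. Most markers of fibroblasts and endothelium were lower in mTEChi as well. At least 3-fold lower were 5 of 7 fibroblast markers (summed 122 CPM, against 892 CPM in mTEClo) and 3 of 5 endothelial ones (35.1 CPM, against 216 CPM), none being at 0, where 12.2% of all genes were. The fibroblast marker Pdgfrb went the other way, 2.03-fold higher in mTEChi. The part of these markers in these results was not tested.

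Cyp2f2 was 3.46-fold lower in mTEChi of the mTEC pair (3.35 to 3.58), with 32.2 CPM in mTEChi, against 106 CPM in mTEClo. The other untreated WT mTEChi libraries had 134 and 109 CPM of Cyp2f2, so this difference did not hold against their spread (edgeR adjusted p = 0.881). Cyp2c38, Cyp4a31 and Cyp7a1 were 4.01-fold (2.44 to 6.68), 3.60-fold (2.18 to 6.00) and 3.40-fold (2.36 to 4.91) lower in mTEChi on at most 70 reads in a library. Among members with at least 100 normalised counts in mTEClo, smaller ratios were those of the following 5. Cyp2j9 had 5.64 CPM in mTEChi, against 12.3 CPM in mTEClo (2.29-fold lower, 2.10 to 2.51), and Cyp2c68 had 0.834 CPM, against 1.69 CPM (2.12-fold, 1.67 to 2.70). Cyp2t4 had 0.466 CPM in mTEChi, against 0.849 CPM in mTEClo (1.92-fold, 1.37 to 2.67), and Cyp2b19 and Cyp4f13 were 1.65-fold (1.53 to 1.77) and 1.58-fold (1.45 to 1.73) lower. For Cyp2c68, Cyp2t4, Cyp2b19 and Cyp4f13 the 0 h library was above mTEClo, so the mTEClo value lay within the range of the untreated WT mTEChi libraries.

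The pairs share no library, and 91 members were tested in both. Of the 65 members at least 3-fold lower in Aire-KO, 16 were also at least 3-fold higher in mTEChi (24.6%), where 29.9% of all genes lower in Aire-KO and 21.5% of all members were. Of the 20 members at least 3-fold higher in mTEChi, 16 were lower in Aire-KO (80%), where 49.9% of all genes higher in mTEChi and 71.4% of all members tested were. The other 4 were Cyp17a1, Cyp26a1, Cyp26c1 and Cyp2j13. Of the 65 members lower in Aire-KO, 3 (Cyp2c38, Cyp2f2 and Cyp4b1) were at least 3-fold lower in mTEChi (4.62%), where 9.43% of all genes lower in Aire-KO and 7.53% of all members were.

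**Figure D4:**
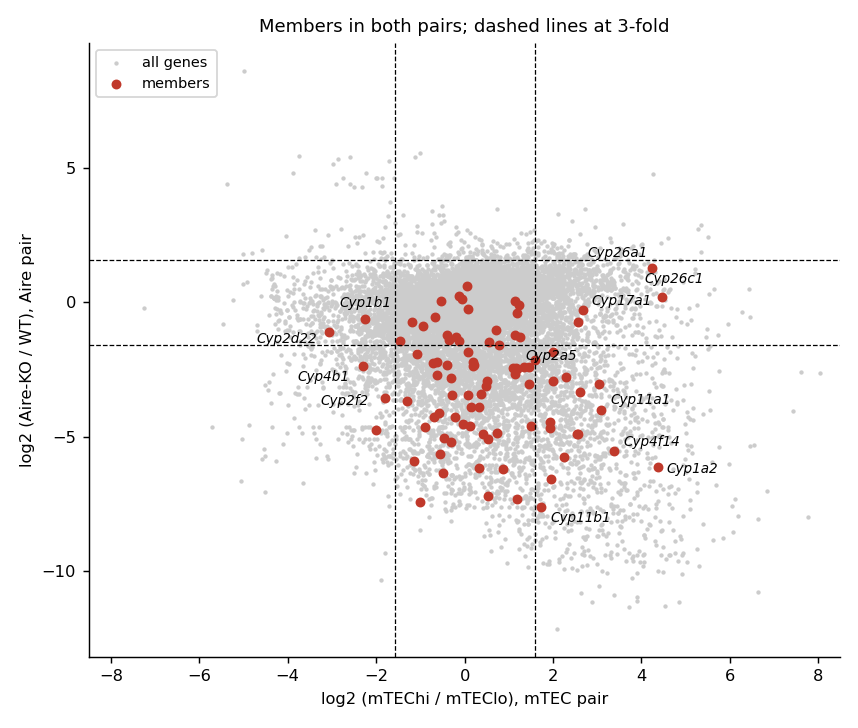
log2 ratio of Aire-KO over WT (vertical) against log2 ratio of mTEChi over mTEClo (horizontal), 91 members in red and 18184 genes in grey, 0.5 reads added, dashed lines at 3-fold. Most red points lie below the lower dashed line, Cyp1a2 and Cyp4f14 at the lower right, while Cyp26a1, Cyp26c1 and Cyp17a1 lie at the right between the horizontal lines.

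Genes that serve or control the enzymes were read beside the members. Within 2-fold stood 64.6% of all genes in the Aire pair and 61.1% in the mTEC pair. The 6 electron donors of P450s were all within 2-fold in both pairs: Por, the reductase of the microsomal enzymes, had 41.5 CPM in Aire-KO, against 71.1 CPM in WT, and Fdx1, the ferredoxin of the mitochondrial ones, had 13.4 CPM in Aire-KO, against 15.4 CPM in WT. All 8 genes of heme synthesis were within 2-fold in the Aire pair. In the mTEC pair, Alas1, the rate-limiting enzyme of heme synthesis, was 3.39-fold higher in mTEChi (266 CPM, against 74.9 CPM in mTEClo) and the other 7 were within 2-fold. Of 12 transcription factors and receptors that control P450 genes in liver and adrenal gland, 5 were at least 3-fold lower in Aire-KO (Ahr, Ppara, Hnf4a, Nr5a1 and Nr1h4), where 22.8% of all genes were, and 7 within 2-fold. In the mTEC pair 1 was at least 3-fold higher in mTEChi (12.7% of all genes were) and 1, Ahr, at least 3-fold lower (12.2% were). Of the rest, 8 were within 2-fold and 2 between the limits.

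The actinomycin D series follows what is left of each transcript when no new one is made. Since CPM is a share of each library, it shows a member relative to all RNA and not an amount per cell. Depth was lower in each later library, and of 92 members with an entry, 0, 0, 24, 46 and 37 were at 0 reads over the 5 times in order. The shares of all genes at 0 over the same times were 3.39%, 6.34%, 19.9%, 33.6% and 28.98%. Of 65 members with at least 100 reads at 0 h, 22 were at 0 at 6 h. Total reads were 91610143 at 0 h and 11295960 at 6 h, so 100 reads at 0 h is still a low level. The share over all genes with as many reads at 0 h was not taken. At 6 h the 46 members that had reads all had at least 20, and none had 1 to 9.

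Members also returned after a 0. With 0 reads at 3 h and at least 20 at 6 h stood Cyp19a1, Cyp2b9, Cyp2c68, Cyp2d11 and Cyp3a44, of which Cyp19a1 had 204 reads at 6 h and 0 at 12 h. Such values cannot be read as decay, and the levels of the less abundant members in the treated libraries are given as counts only. At 3 h relative to 1.5 h, the median log2 change of the 92 members was -0.47, against -0.08 over 18115 genes, with 24 members at 0 reads. Medians at 6 and 12 h are not given, since 46 and 37 of the 92 members were then at 0 reads.

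At least 20 reads in every treated library were reached by 16 members. Cyp2a5 had 771 CPM at 0 h, and then 507, 371, 352 and 185 CPM in the treated libraries from 1.5 to 12 h, a lower value at each later time. Cyp2a4 (208, 129, 100, 82.0 and 52.1 CPM) and Cyp2f2 (109, 69.5, 52.8, 45.2 and 35.5 CPM) had the same order. Cyp3a13 had 36.1, 24.1, 23.5, 19.8 and 18.9 CPM. Cyp17a1 and Cyp2g1 were also lower at 12 h than at 1.5 h, at 0.59 and 0.67 times that value.

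In other members the share of the library at 12 h was near or above that at 1.5 h. Cyp1a2 had 25.3 CPM at 0 h, and then 31.8, 22.4, 37.5 and 81.3 CPM, the last on 142 reads. Cyp11a1 had 24.1, 25.4, 17.1, 45.2 and 47.5 CPM in the same order. Cyp26a1 had 49.9, 77.2, 70.2, 51.1 and 90.4 CPM, and Cyp4f16 had 49.3, 57.9, 65.8, 66.0 and 56.1 CPM. Cyp27a1, Cyp2b19, Cyp4f13, Cyp4f37 and Cyp4v3 were higher at 3 h than at 1.5 h, by 1.59-fold to 2.38-fold, and Cyp2b19 and Cyp4f13 were below the 1.5 h share at 12 h. Cyp3a11 had 3.50 CPM at 1.5 h and 14.3 CPM at 12 h, on 25 reads at 12 h.

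Slopes over the 4 treated libraries were tested with edgeR over all entries, and 0 of 65 members tested had an adjusted p below 0.05, where 0% of 15481 genes had. At an unadjusted p of 0.05, 661 of 20652 entries had a positive and 1235 a negative slope. Among members 1 slope was positive, that of Cyp1a2 ( 0.16 log2 per hour, SE 0.05, edgeR adjusted p = 0.417), and 2 were negative, those of Cyp2a5 (-0.12, SE 0.04, edgeR adjusted p = 0.445) and Cyp2a4 (-0.11, SE 0.04, edgeR adjusted p = 0.490). DESeq2 gave an adjusted p to 5 members and called 1, Cyp2a5 (-0.11 log2 per hour, SE 0.03, DESeq2 adjusted p = 0.0128), where it called 3.57% of genes lower and 6.67% higher. Each time has 1 library. Without the 12 h library, edgeR called 0 of 61 members, where 2.52% of all genes had a negative and 0.427% a positive slope, and the slope of Cyp2a5 was -0.12 with an SE of 0.10.

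**Figure D5:**
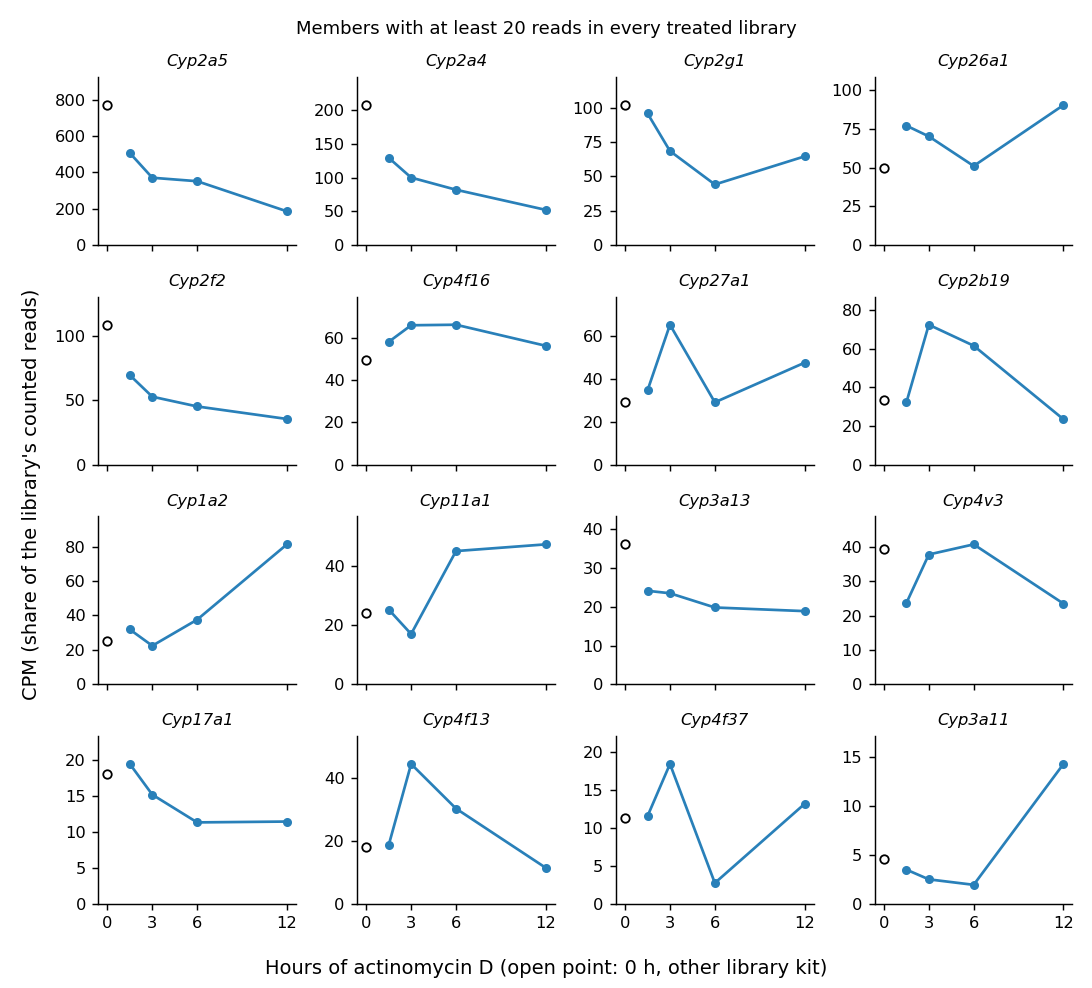
CPM of the 16 members with at least 20 reads in every treated library, against hours of actinomycin D, 1 library a time and each panel on its own axis from 0. The open point is 0 h, made with another kit. Cyp2a5, Cyp2a4, Cyp2f2 and Cyp3a13 have a lower value at each later time, while Cyp1a2 has its highest point, 81.3 CPM, at 12 h.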

How the data were processed

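Per the labels and the study's methods, the authors dropped reads failing the CASAVA filter, trimmed paired reads, mapped reads to the mm9 genome using Bowtie 1.0.0, and counted, with bedtools and without regard to strand, reads that fell wholly inside the exons of a RefSeq entry. Raw counts were deposited for the actinomycin D libraries. For the pairs the deposited signal values are counts divided by a DESeq size factor (normalised counts), with the length of each entry in bases beside them. Each such value was a whole number of reads times 1 step per library (100% within 0.1), and these reads were recovered. Deposited fold and log2 fold columns and p-values of the authors' own comparisons were not used. The columns of the Aire pair name no sample and were assigned by the direction in which the study's code reads them.

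Gene symbols were looked up in RefSeq (GRCm38.p6) and matched 97.7% of 30930 entries. In 9 members with several NM entries, the one with the highest mean of the Aire pair was read, and 1 member (Cyp4a31) has its entry in the pairs only. Coordinates are of gencode vM1 (mm9), which placed 90 members once. Folds are ratios of normalised counts in entries with at least 10 over the pair, with exact 95% intervals from the reads. The limits of 3-fold and 2-fold follow the study. Its 3-fold class also required a Z-score criterion, which was not applied here. A count of 0 was set to 3 reads in folds, and 0.5 reads were added in log2 ratios and medians. Intervals cover counting error only, since PCR reads are not independent molecules. CPM and RPKM use the total reads of each library.

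Aire-KO, and separately mTEClo, was compared with the 3 untreated WT mTEChi libraries, and slopes over hours were estimated across the 4 treated libraries, by edgeR 4.0.16 (quasi-likelihood, TMM factors) and DESeq2 1.42.0 in R 4.3.3, adjusted over all entries by the Benjamini-Hochberg method. These p-values measure the spread between these libraries, which were made in separate experiments. The edgeR fits were also run on simulated counts, of genes with more reads than many members and of independent libraries. That run cannot show how the fits perform on low members or across separate experiments. Other steps used Python 3.11.15 with pandas 2.3.3, numpy 2.4.6, scipy 1.17.1, biopython 1.88 and matplotlib 3.10.9. Values in each library are given for the autoantigen list, for each pair's 10 largest folds per direction among members reaching 100 normalised counts in either library of the pair (fewer where fewer had that direction), for the 6 highest per length, for up to 3 members of each function list, and for members with at least 20 reads in every treated library. Alternatives were equal totals, other count minimums, the lowest NM entry, a 2-fold limit, and other models. Members and lists were chosen with earlier results of these data known. 1 regulator is not reported by name here.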

Additional observations from a re-analysis of the deposited data

How the results depend on the processing

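The count of 65 members at least 3-fold lower in Aire-KO stayed between 49 and 75 with equal totals, no minimum, a minimum of 50 normalised counts, the lowest NM entry or a limit of 2-fold, and DESeq2 called 52. The edgeR test called 29 with all 3 WT libraries and 29 without 0 h. At a limit of 2-fold, 1 member (Cyp26a1) was higher in Aire-KO. The share of all genes was taken at the main limits and for the models only. Counts of members under the other settings, in either pair, thus have no such share beside them. For mTEChi over mTEClo, the 20 higher members became 34 at 2-fold, 5 in edgeR and 11 in edgeR without 0 h, and the 7 lower members became 13 at 2-fold, 2 in edgeR, 3 in edgeR without 0 h and 3 in DESeq2. Slopes numbered 0, and 1 in DESeq2. The median change at 3 h over 1.5 h was between -0.50 and -0.45 with TMM factors, a minimum of 30 reads or 2 reads added. Among 184 single ratios of the pairs, equal totals moved 27 outside their counting interval and 2 added reads moved 0. Of 17 with another NM entry, 1 moved outside its interval. None that passed 3-fold changed its sign with another NM entry. Equal totals could not change such a sign, since they shift all ratios of a pair by the same small amount, and 2 added reads could hardly do so. Equal totals shift the mTEC pair by 0.07 on the log2 scale. No paired analysis was possible because each group has 1 library.

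With 1 library a group, no ratio of a pair has a replicate, and the WT libraries that stand in for replicates came from separate experiments. Depth limited the low members: the floor of 3 reads was 0.0210 CPM in Aire-KO, against 0.0288 CPM in WT, and 0.215, 0.266 and 1.72 CPM at 3, 6 and 12 h. Reads shared by near-identical members could not be assigned with certainty.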

Other observations

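The 3 P450 genes whose symbols lie outside the naming rule were read beside the family. Cyp51, which removes a methyl group in cholesterol synthesis in every cell type, had 60.4 CPM in Aire-KO, against 91.2 CPM in WT, a ratio of 0.78, and 108 CPM in mTEChi, against 49.3 CPM in mTEClo, 2.08-fold higher. Tbxas1, the thromboxane synthase of platelets and macrophages, had 0.0420 CPM in Aire-KO, against 1.14 CPM in WT, 23.2-fold lower. Ptgis, the prostacyclin synthase of vessel walls, had 1.89 CPM in mTEChi, against 9.24 CPM in mTEClo, 5.13-fold lower.

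Among the regulators, Hnf4a, a transcription factor of liver, had 0.476 CPM in Aire-KO, against 8.21 CPM in WT, 14.7-fold lower, and 6.85 CPM in mTEChi, against 5.41 CPM in mTEClo.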
